A study of Mus musculus with 8 samples.

Results

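Neurons of the lateral ganglionic eminence (LGE) are born from radial glia that keep Notch signalling and its target genes Hes1 and Hes5 active, and they switch on the Dlx homeobox genes, the GABA-synthesising enzymes Gad1 and Gad2 and the vesicular GABA transporter Slc32a1 as they leave the cell cycle. Most become the projection neurons of the striatum, which are known for the transcription factors Ebf1, Isl1, Foxp1, Meis2, Zfp503 and the retinoic acid receptor Rarb, while dorsal LGE cells also supply interneurons of the olfactory bulb. The neighbouring medial eminence (MGE) is set apart by Nkx2-1, Lhx6 and Lhx8, and the caudal eminence (CGE) by the orphan nuclear receptors Nr2f1 and Nr2f2.

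Chromatin accessibility was profiled in single nuclei of wild-type (WT) mouse embryos at E12.5, with 2 samples each of LGE, MGE and CGE on the 10X Genomics Chromium platform, and cortical samples were not used here. The GABAergic neuron-like nuclei of the LGE were chosen by their own counts: among nuclei with at least 5000 counts in peaks, counts over Hes1, Hes5, Sox2, Notch1, Nes and Vim (A) were set against counts over Dlx5, Dlx6, Gad1, Gad2 and Slc32a1 (B) as (A+1)/(A+B+2), and the lowest 25% of each sample were taken. This gave 1468 of 5874 nuclei in LGE replicate 1 and 1154 of 4616 in replicate 2, together 2622 of 10490 LGE nuclei of that depth and of 39253 nuclei in the series. The same cut gave 2349 nuclei in the MGE (1521 and 828) and 2033 in the CGE (926 and 1107).

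In LGE the cut fell at a score of 0.5 in both replicates, where A and B were equal, whereas it fell between 0.313 and 0.455 in the 4 other samples. B was above A in 1205 of 1468 selected nuclei in replicate 1 and in 1132 of 1154 in replicate 2, and A equalled B in the other 263 and 22, of which 38 and 5 had no count in either list. The nearest untied nuclei inside the cut had 46 counts in A and 47 in B in replicate 1 and 28 and 29 in replicate 2, and those just outside had 56 and 55, and 40 and 39. Scores ran on without a gap at the cut, with 343 and 190 LGE nuclei within 0.02 of the cut. Selected nuclei held a median of 13743.5 and 12483 counts, against 16979 and 15821.5 in the other LGE nuclei, and 78.3% and 85.1% of them were selected again when every nucleus was thinned to 5000 counts. Summed counts of the selected nuclei ranged from 12589595 to 25430664 per sample, and 15 to 56 barcodes were shared between any pair of samples before selection.

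The genes that chose the nuclei are given as description only. In LGE replicate 1, Gad1 had a count in 69.2% of selected and 40.3% of other nuclei, Gad2 in 69.8% and 44.8%, and Slc32a1 in 57.2% and 27.01%. In replicate 2 the shares were 71.8% and 39.2% for Gad1, 71.7% and 41.7% for Gad2, and 68.4% and 27.7% for Slc32a1. The other nuclei, which were deeper, had the lower shares in every case. Dlx5 had a count in 52.6% of selected nuclei in replicate 1 but 93.1% in replicate 2, and peaks over the locus covered 5.07 kb in replicate 1 and 33.4 kb in replicate 2, where 1 interval held both Dlx5 and Dlx6. Peaks were called separately in each sample, and their total length was 87.2 Mb in LGE replicate 1 and 118 Mb in replicate 2, and levels over a gene can move with the peak length counted.

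Ebf1, a striatal transcription factor that the score did not use, had a count in 77.9% of selected and 79.3% of other nuclei in replicate 1, and in 77.4% and 79.5% in replicate 2. Each sample was also divided into 4 bins of 25% by score, and levels are given in CPM, counts scaled to the sample's total over genes. From the highest bin down to the selected one, Ebf1 stood at 261, 284, 301 and 347 CPM in replicate 1, and at 247, 263, 300 and 331 CPM in replicate 2. Its gradient was shallow beside those of neuronal genes. Between the same end bins Ina, a neurofilament gene, went from 16.9 to 72.8 CPM and from 13.3 to 97.6 CPM. Stmn2, a regulator of microtubules in growing axons, went from 35.6 to 99.7 CPM and from 22.2 to 97.5 CPM, and Dcx, a marker of migrating neurons, from 52.6 to 111 CPM and from 39.7 to 93.0 CPM. Genes of radial glia outside the score went the other way: Fabp7, a brain fatty acid-binding protein, went from 93.6 to 26.4 CPM and from 93.3 to 17.3 CPM.

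Striatal genes differed among themselves along the score, and the summed level of the 19 on the list was 4330 and 4650 CPM in the end bins of replicate 1 and 4465 and 4837 CPM in those of replicate 2. Zfp503 went from 74.8 to 143 CPM in replicate 1 and from 85.8 to 169 CPM in replicate 2, and Isl1, a LIM homeobox gene, from 63.5 to 85.8 CPM and from 79.2 to 127 CPM. Foxp2, a forkhead factor, went from 284 to 361 CPM and from 261 to 337 CPM. Meis2 was nearly level, at 595 CPM in the highest and 553 CPM in the selected bin of replicate 1 and at 670 and 642 CPM in replicate 2, and Foxp1 went from 482 to 428 CPM and from 439 to 409 CPM. Other genes of the list went down further, Six3 from 223 to 139 CPM and from 271 to 161 CPM, Sox8 from 68.6 to 36.7 CPM and from 72.0 to 29.2 CPM, Ikzf1 from 29.3 to 18.0 CPM and from 27.2 to 14.2 CPM, and Ikzf2 from 76.2 to 55.9 CPM and from 83.3 to 54.1 CPM. Outside the striatal list, Tshz2, a zinc finger homeobox gene, went from 152 to 322 CPM and from 137 to 313 CPM, Sp9, which is needed for striatal neurons of the indirect pathway, from 68.9 to 164 CPM and from 82.2 to 195 CPM, and Stra6, the retinol transporter, from 147 to 336 CPM and from 137 to 344 CPM. Stra6 drew 92% of its counts from peaks shared with a neighbouring gene.

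**Figure D1:**
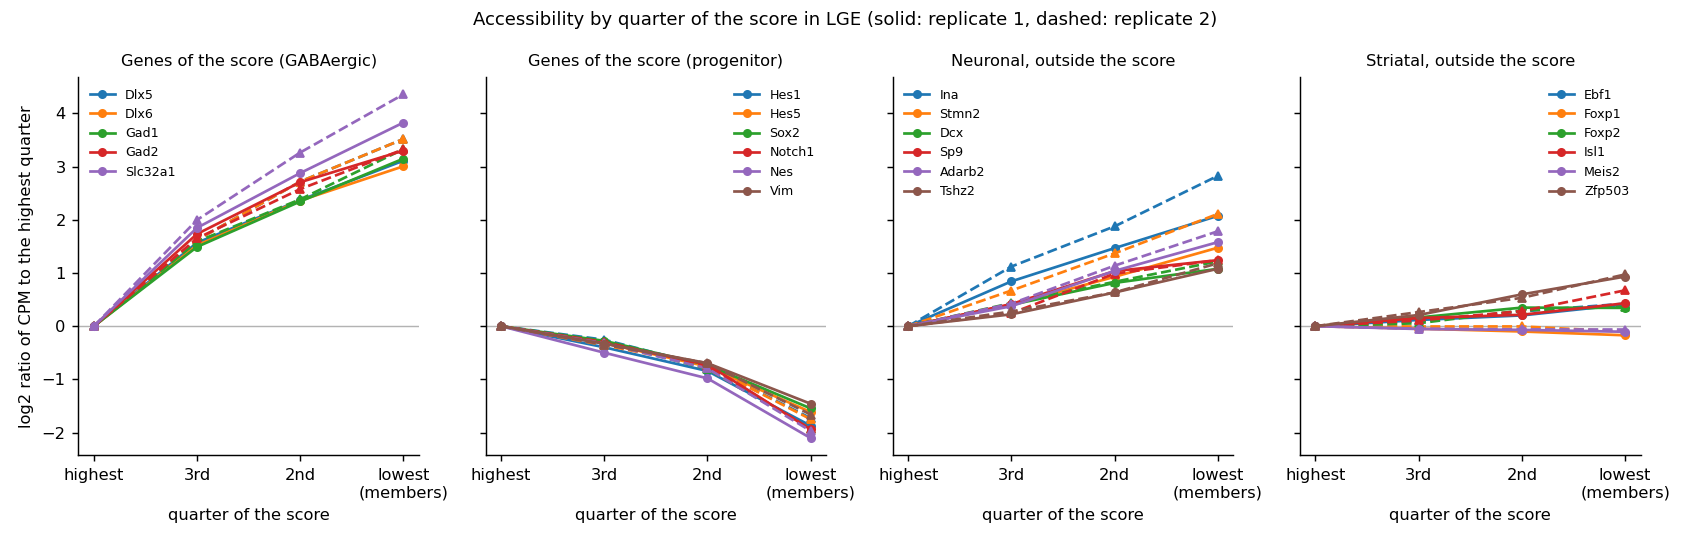
Accessibility in each 25% bin of the score in the LGE, as log2 ratio of CPM to the highest bin (y axis), from the highest to the selected lowest bin (x axis), with a line per gene and replicate. The score's own genes form the first pair of panels, Ina and Stmn2 climb with the neuronal genes, and among striatal genes Zfp503 climbs while Meis2 and Foxp1 stay near or below 0.

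Grouped by their accessibility over all regions, the selected LGE nuclei formed 7 sub-groups present in both replicates, described here with no test because the same nuclei defined them. A marker is called raised below where its mean log2 CPM ratio to the other selected nuclei was above 0.5. The third sub-group (275 and 136 nuclei, 18.7% and 11.8% of those selected) had all 7 glutamatergic markers raised. Among them were Neurod6 by 2.49, the vesicular glutamate transporter Slc17a6 by 2.17, Neurod2 by 1.87 and Tbr1 by 1.32. The sub-group had Dlx1 at -1.25 and Gad2, which belongs to the score, at -1.32. It is called glutamatergic-like here. The label of GABAergic neuron-like nuclei therefore did not hold for these nuclei.

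The fourth sub-group (234 and 175 nuclei, 15.9% and 15.2%) had 8 of 9 progenitor markers raised. Of these, 5 (Hes5, Nes, Notch1, Sox2 and Vim) belong to the score that chose the nuclei, and the other 3 were Fabp7, Slc1a3 and Sox9. Outside that list Dll1, a Notch ligand, stood at 0.90, and Helt and Lfng were among its leading genes. It is called progenitor-like by markers raised relative to the other selected nuclei. Its GABAergic neuron list stood at a mean log2 ratio of -0.04 to those nuclei, against -0.75 in the third sub-group. That list holds the score's own B genes and Ebf1, so these values are description only. The second (235 and 183 nuclei, 16.01% and 15.9%) had Ebf1 at 0.74, Isl1 at 0.52 and Rarb at 0.77, and Tnfsf8, Gnrh1, Slc13a1 and Il7r led its list, of which Tnfsf8 and Il7r are immune genes. These were 3 of 8 striatal markers, and the sub-group stayed unnamed. The fifth (210 and 137 nuclei, 14.3% and 11.9%) had Zfp503 at 0.72 and Isl1 at 0.53, with Cpb2, Fap and Ppp1r3a among its leading genes, and stayed unnamed as well.

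The first and largest sub-group (365 and 338 nuclei, 24.9% and 29.3%) had Dlx1 at 0.78, Dlx2 at 0.80, Gad1 at 0.48 and Dcx at 0.56. It also had Notch1 at 0.72 and Sox2 at 0.56, and Gad1, Notch1 and Sox2 belong to the score. The sixth (113 and 155 nuclei, 7.70% and 13.4%) was led by Popdc3, Gpr26 and Gng4 and had Pax6 at 0.64. Both stayed unnamed. The seventh (36 and 30 nuclei, 2.45% and 2.60%) had 4 of 7 MGE-derived neuron markers raised, with Sst at 1.99, Lhx6 at 1.81 and Nkx2-1 at 1.03, and Meis2 at -1.24, Zfp503 at -1.48 and Ebf1 at -1.39. It is called MGE-derived neuron-like, and the T cell gene Ctla4 led its list. By the same grouping, no sub-group of the MGE selection was glutamatergic-like, and a sub-group with 19.4% and 19.2% of the CGE selection was. Whole sub-groups were called, so single nuclei of this kind in other sub-groups would be missed. Summed glutamatergic levels were 410 and 438 CPM in the LGE selection and 421 and 337 CPM in that of the MGE. Results against the MGE are also given without the nuclei of glutamatergic-like sub-groups where a count moved.

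**Figure D2:**
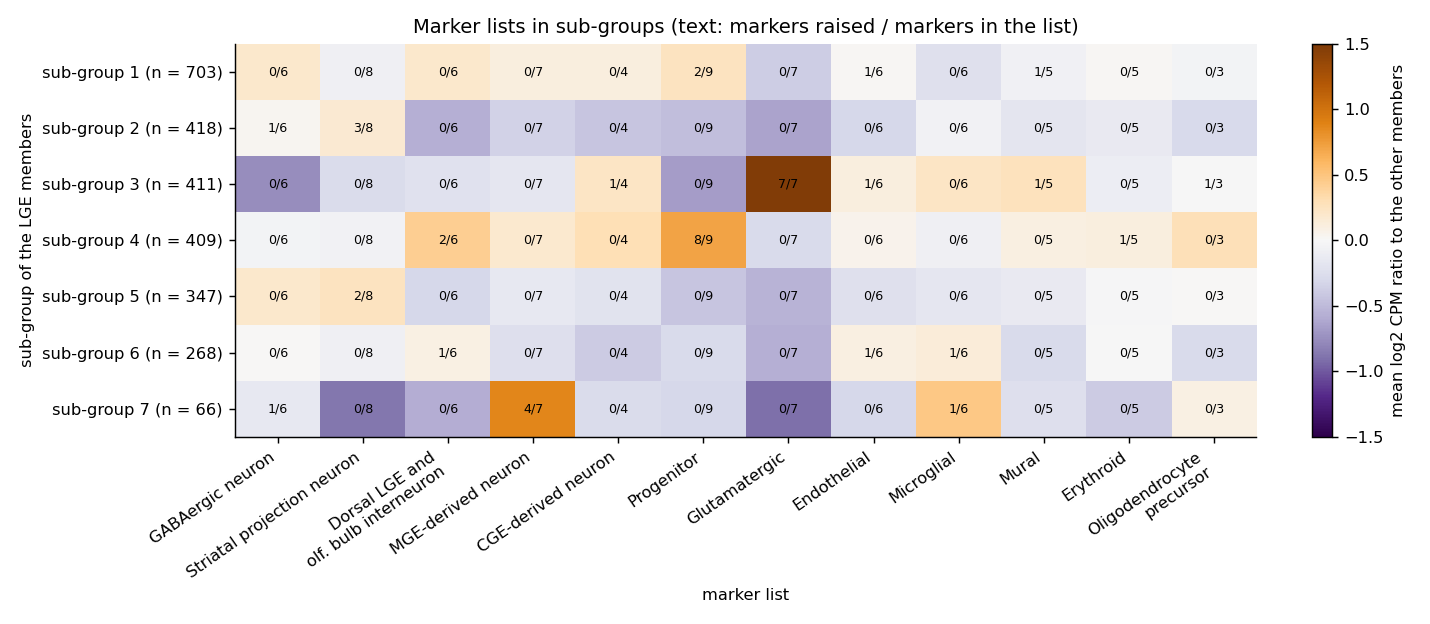
The 7 sub-groups of the selected LGE nuclei (rows, n over both replicates) against 12 marker lists (columns), with colour for the mean log2 CPM ratio to the other selected nuclei and text for markers raised out of markers listed. The glutamatergic list stands at 7 of 7 in the third sub-group and the progenitor list at 8 of 9 in the fourth.

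Which loci differ between these nuclei and those selected in the neighbouring eminences was then asked by comparing sums over the selected nuclei of each sample. In sums, fewer nuclei of a type and less signal per nucleus cannot be told apart, and the labels do not say whether replicates came from separate litters, so p-values measure only the spread between these samples. Against the MGE, 58 of 16832 genes passed (edgeR quasi-likelihood test, Benjamini-Hochberg adjusted p of 0.05 or less), 0.345% of those tested. Of these, 26 were higher and 32 lower in LGE. None of the 11 genes of the score was among them, which is not read as a result because these genes chose the nuclei. Of the 58, 14 had under 500 bp of peak in some sample and 14 drew at least 50% of their counts from peaks shared with another gene. Without the glutamatergic-like nuclei 93 passed. Without LGE replicate 1, MGE replicate 1 or MGE replicate 2 the count was 22, 27 and 248. DESeq2 called 457, of which 240 were higher and 217 lower in LGE, and the fit with the replicate number as a block called 26. When covered peak length was entered as an offset 1 gene passed, with the median of all genes moved to 0.18.

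Of the striatal projection neuron genes, 1 of 19 tested passed, and their median log2 fold was 0.12 against 0.00 over all genes. That gene was Meis2 (GRCm38 chr2:115863064-116065839), a TALE homeobox factor of the LGE. Its level was 545 and 643 CPM in LGE, 221 and 196 CPM in MGE and 445 and 475 CPM in CGE, so that every LGE sample lay above every other. It was 1.51 ± 0.14 (SE, n = 2 samples per region) higher in LGE than MGE on the log2 scale (edgeR adjusted p = 0.00875). Covered length was 61.5 and 99.9 kb in LGE and 35.8 and 45.9 kb in MGE, and with that offset the value was 0.55 (edgeR adjusted p = 0.787).

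Other striatal factors did not pass over the whole gene. Rarb stood at 177 and 151.2 CPM in LGE and 84.2 and 88.8 CPM in MGE, with a log2 fold of 0.92 ± 0.15 (edgeR adjusted p = 0.0580). Ebf1 stood at 342 and 332 CPM in LGE and 183 and 226 CPM in MGE (log2 fold 0.72, edgeR adjusted p = 0.134), and Foxp2 at 355 and 337 CPM against 159 and 244 CPM (0.78, adjusted p = 0.267 in the same edgeR fit). Other genes of the list lay the other way without passing: Six3, a homeobox factor, stood at 137 and 161 CPM in LGE and 237 and 183 CPM in MGE (-0.50), Pou3f1 at 83.7 and 94.8 CPM against 131 and 111 CPM (-0.44), and Bcl11b, a zinc finger factor of striatal neurons, at 415 and 385 CPM against 618 and 426 CPM (-0.38). Isl1 overlapped, at 84.5 and 127 CPM in LGE and 104 and 90.6 CPM in MGE. None of the 14 striatal neurotransmission genes passed (median 0.14). Drd2, the dopamine receptor of the indirect pathway, was at 23.7 and 32.4 CPM in LGE and 16.4 and 18.3 CPM in MGE (0.69), while Pcp4 was at 15.6 and 13.1 CPM against 20.98 and 22.5 CPM (-0.60) and Pdyn, the prodynorphin gene of the direct pathway, at 20.6 and 19.6 CPM against 28.5 and 26.9 CPM (-0.47).

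Among MGE genes, 3 of 18 were lower in LGE and none higher, with a median of -0.40. Nkx2-1 (chr12:56531958-56536908), which specifies the MGE, stood at 43.0 and 33.6 CPM in LGE and 459 and 268 CPM in MGE, a log2 fold of -3.24 ± 0.29 (edgeR adjusted p = 0.00710). Lhx6 (chr2:36081953-36105408), a LIM factor of MGE-derived neurons, stood at 45.0 and 54.8 CPM against 449 and 343 CPM (-2.99 ± 0.19), and Lhx8 at 56.9 and 67.4 CPM against 170 and 190 CPM (-1.53 ± 0.15). Both groups stood well apart for all 3 genes. Peaks over Nkx2-1 covered 5.50 and 6.26 kb in LGE and 24.3 and 21.5 kb in MGE, and over Lhx6 5.94 and 9.14 kb against 30.5 and 30.4 kb, and none of these 3 passed with that offset. Lhx6 drew all of its counts from peaks shared with other genes, Morn5 among them.

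Among the remaining lists no gene passed in either direction: 9 dorsal LGE and olfactory bulb genes (median 0.12), 10 GABAergic genes outside the score (-0.45), 14 CGE genes (-0.17), 15 retinoic acid pathway genes (-0.05), 16 pan-neuronal genes (-0.01), 14 progenitor genes outside the score (-0.05), 10 cycling and intermediate progenitor genes (0.05) and 20 axon guidance genes (0.02). In the GABAergic list Dlx1, which shares its peaks with Dlx2, stood at 411 and 475 CPM in LGE and 697 and 550 CPM in MGE, with a log2 fold of -0.49 that did not pass. Markers of other cell types gave no call either, with medians of 0.19 for 9 glutamatergic, -0.08 for 6 endothelial, -0.01 for 5 microglial, -0.23 for 5 mural, 0.39 for 2 erythroid and -0.38 for 3 oligodendrocyte precursor genes. Their summed levels in the selected nuclei were 337 to 438 CPM for glutamatergic genes over the 6 samples, 150.6 to 200.1 CPM for endothelial genes, 139 to 166 CPM for microglial genes, 119 to 211 CPM for mural genes, 29.8 to 47.7 CPM for erythroid genes and 118 to 226 CPM for oligodendrocyte precursor genes. Counts without the glutamatergic-like nuclei are given where they moved, and the part of the other types in the results was not tested.

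The largest folds among genes that met the naming rule lay over genes with other known roles. Ppp1r3a (chr6:14713977-14755274), a glycogen-targeting phosphatase subunit whose gene neighbours Foxp2, was at 48.1 and 30.5 CPM in LGE, 2.56 and 3.83 CPM in MGE and 35.1 and 31.6 CPM in CGE (log2 fold against MGE 3.66 ± 0.31, edgeR adjusted p = 0.00621). Sycp2l, Gnat2, Cpb2, Fap, 1700019N19Rik, Lrrc52 and Cdh17 followed, with log2 folds from 2.81 down to 1.86. Fap, a membrane protease, was at 19.7 and 16.8 CPM in LGE, 2.98 and 4.36 CPM in MGE and 19.3 and 26.9 CPM in CGE. Both CGE samples lay above both LGE samples for Sycp2l (28.0 and 29.2 against 21.9 and 19.0 CPM) and 1700019N19Rik. They lay below both for Cpb2 (15.3 and 18.3 against 27.7 and 24.0 CPM) and overlapped those of LGE for the others. Lower in LGE were Stap2, Ccdc188, Morn5, Nkx2-1, Fgr, Lhx6, Mettl11b and Aqp6, with log2 folds from -5.55 to -2.30. Stap2 was at 2.40 and 2.88 CPM in LGE against 129 and 116 CPM in MGE, and 99.8% of its counts were shared with a neighbouring gene. With the offset Stap2 was the gene that passed, Morn5 turned to 0.55 without passing, and in peaks within 1 kb of a start site 1700019N19Rik turned to -2.57 without passing.

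**Figure D3:**
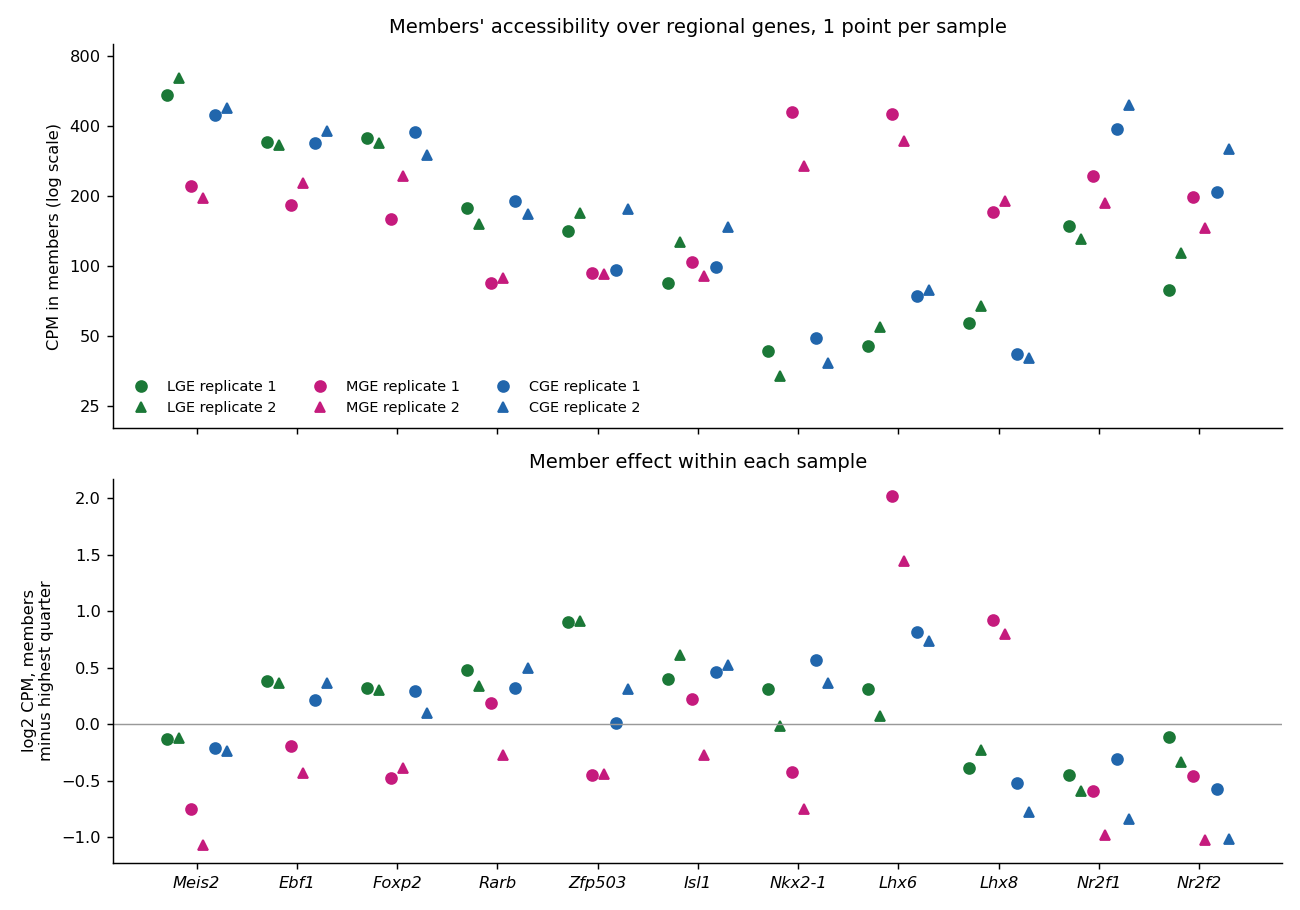
Upper panel: CPM in the selected nuclei (log scale) for 11 regional genes, with a point per sample. Lower panel: log2 CPM of the selected nuclei minus that of the highest 25% by score in the same sample. Meis2 lies between 545 and 643 CPM in LGE and between 196 and 221 CPM in MGE, and Lhx6 gains 2.02 and 1.45 in MGE and 0.31 and 0.07 in LGE.

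Against the CGE, 2 of 16832 genes passed, 0.0119% of those tested, both lower in LGE. Stap2 was at 112 and 104 CPM in CGE (log2 fold -5.37, edgeR adjusted p = 7.32e-05), and 4930415O20Rik at 8.41 and 9.12 CPM in LGE and 67.6 and 89.1 CPM in CGE (-3.16, adjusted p = 0.00338 in the same edgeR fit). Peaks over Stap2 covered 0.819 and 1.34 kb in LGE and 4.95 and 5.60 kb in CGE, and 1 of these genes passed with the offset, under which the median of all genes moved to 0.30. DESeq2 called 65 genes, and without LGE replicate 1, LGE replicate 2 or MGE replicate 2 the count was 5, 12 and 4.

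No list gene passed against the CGE. The largest differences among its marker genes were in Nr2f1, at 148 and 130 CPM in LGE and 389 and 490 CPM in CGE (log2 fold -1.66 ± 0.19, edgeR adjusted p = 0.132), and in Nr2f2, at 79.0 and 114 CPM against 208 and 318 CPM (-1.45 ± 0.27, edgeR adjusted p = 0.475). Neither gene's samples overlapped, and neither difference passed. With 2 samples per region such separation is not read as a difference, and its share over all genes was not counted. Of the striatal genes, Ebf1 was at 339 and 382 CPM in CGE (log2 fold -0.10 ± 0.15) and Rarb at 190 and 167 CPM (-0.12 ± 0.15). Meis2 was higher in both LGE samples than in either CGE sample (0.37 ± 0.14), and so was Mpped2, at 325 and 322 CPM in LGE and 243 and 237 CPM in CGE (0.43 ± 0.12). None of these 4 differences passed. Median log2 folds by list ran from -0.62 over 5 microglial genes to 0.37 over 3 oligodendrocyte precursor genes, with 0.35 over the dorsal LGE and olfactory bulb genes, 0.12 over the GABAergic genes outside the score and -0.19 over the CGE genes, against -0.004 over all genes.

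A larger share of regions than of genes passed. Of 76128 regions with a peak in all 6 samples, 5958 passed against the MGE (edgeR, adjusted p of 0.05 or less), 7.83% of those tested, with 3478 higher and 2480 lower in LGE. With the covered-length offset 4119 passed, of which 3298 were higher, so that the share of higher calls went from 58.4% to 80.1% with the median of all regions moved to 0.16. Without LGE replicate 1 the count was 2369, and with the glutamatergic-like nuclei left out it was 6921. Called regions lay farther from start sites than tested regions as a whole. Of those higher in LGE 97.2% were over 1 kb from a start site, at a median distance of 53.2 kb, and of those lower 96.3%, at 35.2 kb, whereas 78.9% of all tested regions were so placed, at a median of 16.1 kb. Median GC content of the 200-base cores was 46.0% in regions higher in LGE, 49.5% in those lower and 51.5% over all tested.

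Regions within 100 kb of the start site were counted for 4 striatal genes, Zfp503, Ebf1, Foxp1 and Isl1, for 3 MGE genes and for 2 CGE genes. They are read against the 7.83% of all tested regions that passed in either direction. Near Zfp503, 6 of 12 tested regions were higher and none lower. Near Ebf1 4 of 24 were higher and 1 lower, near Foxp1 3 of 38 were higher, which is close to the overall share, and near Isl1 none of 3 passed. Near the MGE genes no region was higher, with 5 of 12 lower at Nkx2-1, 7 of 11 at Lhx6 and 3 of 9 at Lhx8, and 1 of 2 was lower at Nr2f1 and none of 5 at Nr2f2.

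Sequences are shown for 4 called regions that anchor these results: the region of largest fold near Zfp503, an intergenic region with a pair of Meis-type letters, the region near Lhx8 as the counterpart from the MGE, and the region of largest fold over the CGE under the replicate block. Each is the 200-base core shared by the peaks of all 6 samples, read 5′ to 3′ on the plus strand of GRCm38, and capitals mark matches on either strand to the 8 letter motifs described after them.
Zfp503 region, chr14:22005077-22005276: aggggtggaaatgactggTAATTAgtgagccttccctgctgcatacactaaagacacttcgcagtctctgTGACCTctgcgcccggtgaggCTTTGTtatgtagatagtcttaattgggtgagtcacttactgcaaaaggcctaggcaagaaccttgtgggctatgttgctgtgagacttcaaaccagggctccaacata
Intergenic region, chr14:46173060-46173259: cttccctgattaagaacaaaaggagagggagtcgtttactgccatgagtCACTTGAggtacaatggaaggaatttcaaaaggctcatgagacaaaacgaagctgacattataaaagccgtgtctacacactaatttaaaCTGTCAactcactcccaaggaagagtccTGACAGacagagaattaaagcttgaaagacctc
Lhx8 region, chr3:154391741-154391940: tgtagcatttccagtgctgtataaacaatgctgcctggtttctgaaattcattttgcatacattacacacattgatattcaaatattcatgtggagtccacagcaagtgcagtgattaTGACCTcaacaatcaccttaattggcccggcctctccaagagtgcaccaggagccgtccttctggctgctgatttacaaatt
Plcxd3 intron region, chr15:4439467-4439666: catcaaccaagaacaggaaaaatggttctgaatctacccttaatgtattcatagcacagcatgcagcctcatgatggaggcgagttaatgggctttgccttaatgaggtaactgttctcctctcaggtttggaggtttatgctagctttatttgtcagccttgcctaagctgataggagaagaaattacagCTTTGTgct

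The Zfp503 region (chr14:22004225-22005695, intergenic, 14.6 kb from the gene) stood at 19.5 and 18.4 CPM in LGE, 2.03 and 1.97 CPM in MGE and 12.9 and 12.2 CPM in CGE, and was 3.24 ± 0.29 higher in LGE than MGE on the log2 scale (edgeR adjusted p = 0.000672). The intergenic region (chr14:46172539-46173579), whose nearest start site is Gm15217 at 206 kb, stood at 26.3 and 19.7 CPM in LGE, 0.912 and 0.537 CPM in MGE and 17.8 and 15.7 CPM in CGE (log2 fold 4.89, and 3.52 with the offset). A region in an intron of Scube1 (chr15:83667096-83668990) stood at 34.8 and 29.6 CPM in LGE against 0.870 and 1.34 CPM in MGE (4.92, and 3.34 with the offset). In each of these the CGE samples lay between those of LGE and MGE. The 2 regions of largest fold (chr8:82701758-82703043 and chr12:80070474-80071525) were near 0 in MGE, at 0.124 and 0 CPM each, against 5.05 and 2.49 CPM and 4.56 and 1.39 CPM in LGE.

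A region in a Foxp1 intron (chr6:99309578-99311437) stood at 13.1 and 15.5 CPM in LGE and 3.61 and 3.49 CPM in MGE (log2 fold 2.00). Near Ebf1, the called region with the largest fold was lower in LGE (chr11:44684219-44686521, in an Ebf1 intron, -3.03), at 0.571 and 1.11 CPM against 5.26 and 8.23 CPM, and it did not pass with the offset (-0.97, edgeR adjusted p = 0.349). Near Nkx2-1, a region 92.5 kb away (chr12:56439432-56442590) stood at 1.51 and 4.02 CPM in LGE and 55.9 and 39.7 CPM in MGE (-4.18, and -1.97 with the offset). The Lhx8 region (chr3:154390872-154393921) stood at 4.69 and 5.89 CPM in LGE and 18.5 and 29.5 CPM in MGE (-2.18, and -1.05 with the offset). Over Lhx6 itself a region (chr2:36076465-36106951) stood at 53.4 and 69.1 CPM in LGE and 436 and 345 CPM in MGE (-2.67, and -0.79 with the offset, with 6707 and 10050 bp of peak in LGE against 30487 and 30439 bp in MGE). These 3 regions passed with the offset too. In each of these MGE-side regions the LGE and MGE samples were further apart than the replicates of either. A region in an intron of Fam172a, 89.4 kb from Nr2f1 (chr13:78099704-78101004), stood at 6.89 and 5.33 CPM in LGE, 22.4 and 33.0 CPM in MGE and 12.2 and 12.1 CPM in CGE (-2.17 against MGE, and -1.63 with the offset). The largest fold below MGE was in a region 600 kb from Gm26657 (chr4:56139259-56140185), at 0.326 and 0.346 CPM in LGE and 10.7 and 12.4 CPM in MGE (-5.08, and -3.65 with the offset).

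**Figure D4:**
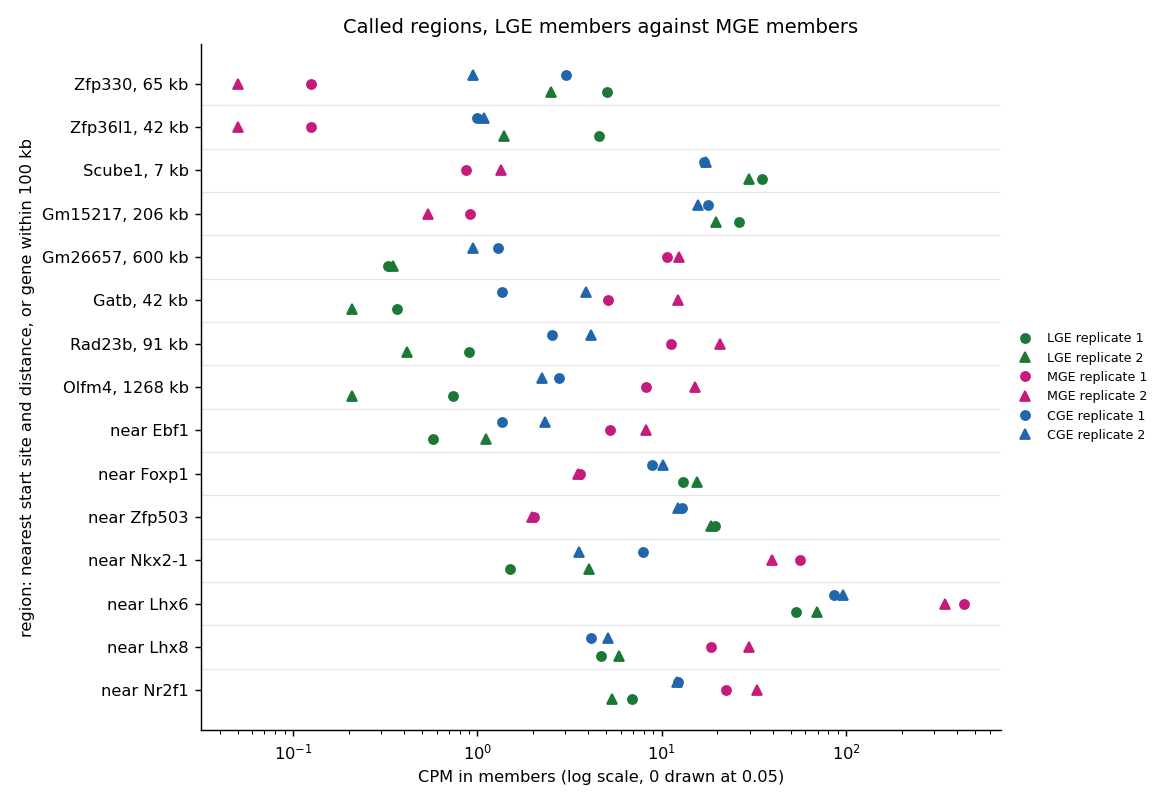
CPM of the selected nuclei (x axis, log scale, 0 drawn at 0.05) in 15 called regions (rows), labelled by nearest start site and distance or by the listed gene within 100 kb, with a point per sample. In the row near Zfp503 the LGE samples sit at 18.4 and 19.5, the CGE samples at 12.2 and 12.9 and the MGE samples at 1.97 and 2.03.

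The 8 letter motifs searched on both strands of the cores were TAATTA (homeodomain), TGACAG (Meis and TGIF), AGGTCA (nuclear receptor half-site), CAGCTG (E-box), CCCNNGGG (Ebf type), ACAAAG (Sox), ATGCAAAT (POU octamer) and CACTTGA (Nkx2), none of which contains another, though matches may overlap. TGACAG was in 35.5% of 3040 cores higher in LGE, in 15.0% of 2092 lower and in 17.0% of all 69575 tested. Among cores over 1 kb from a start site the shares were 35.9%, 15.1% and 18.9%. Regions called also with the offset held it in 37.7% where higher and 13.5% where lower. Over distal regions the median log2 fold was 0.17 with TGACAG and 0.01 without, and the difference between these medians was 0.12 to 0.18 in the 4 pairings of an LGE with an MGE sample. For ATGCAAAT the medians were 0.19 and 0.03, and the difference was 0.03 to 0.23 over the same pairings. Differences below 0 in all 4 pairings were found for CAGCTG (-0.08 to -0.07) and CACTTGA (-0.15 to -0.04). Against the CGE the difference for TGACAG lay on both sides of 0, from -0.01 to 0.05, while it was above 0 in all 4 pairings for AGGTCA (0.04 to 0.10) and CCCNNGGG (0.01 to 0.08) and below 0 for TAATTA (-0.12 to -0.04).

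For the other letters the shares were as follows. TAATTA was in 16.2% of cores higher and 18.4% of cores lower in LGE against 7.71% of all, and ATGCAAAT in 5.49% and 4.64% against 2.495%. CAGCTG was in 17.2% and 26.1% against 18.0%, and CACTTGA in 3.19% and 5.64% against 2.63%. AGGTCA was in 7.01% and 7.41% against 8.70%, CCCNNGGG in 5.49% and 6.17% against 8.60%, and ACAAAG in 22.6% and 18.5% against 18.5%. These shares are descriptions of letters in windows, and the regions differed in GC content as given.

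**Figure D5:**
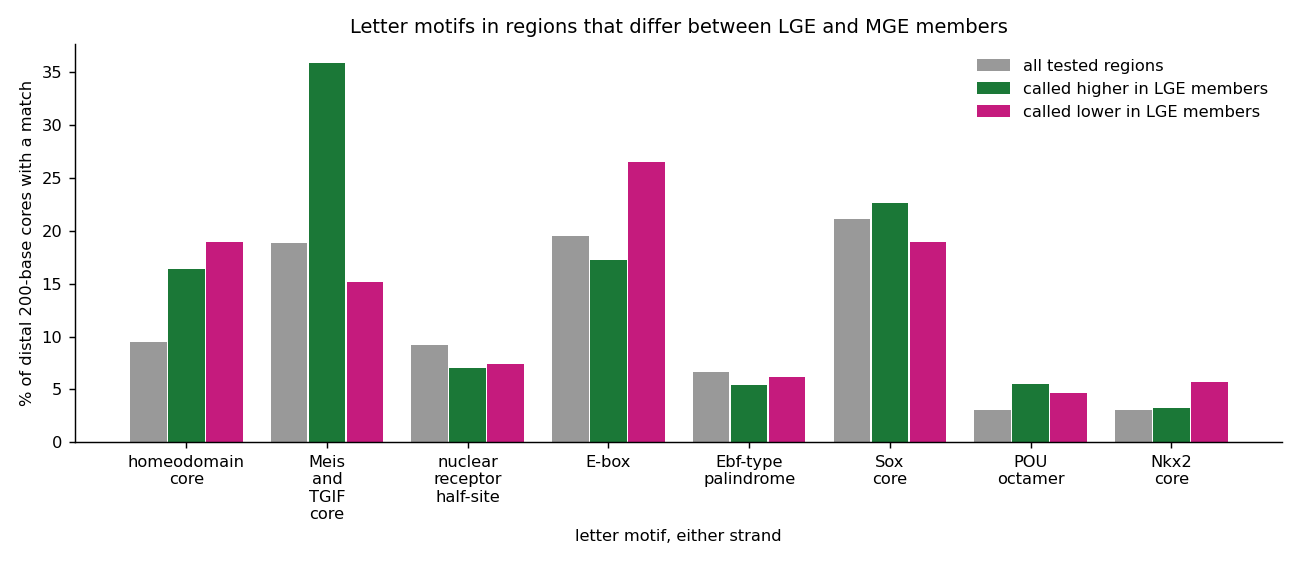
Share of distal 200-base cores (y axis, %) with a match to each of 8 letter motifs (x axis, named by factor class) in all tested regions, in those higher and in those lower in LGE than in MGE. The Meis and TGIF core stands at 35.9% in regions higher in LGE, 15.1% in those lower and 18.9% over all.

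Against the CGE, no region passed (edgeR, 0% of 76128), with 7303 at an unadjusted p under 0.05, while DESeq2 called 964. Region sums of same-numbered samples had correlated deviations (0.123 for LGE and MGE, 0.288 for LGE and CGE, 0.121 for MGE and CGE). Whether replicate numbers pair the samples was not tested. With the replicate number as a block, fitted as an alternative, 324 regions passed, 0.426% of those tested, with 166 higher in LGE. Without LGE replicate 2 the count was 260, of which 10 were higher and 250 lower in LGE, and without LGE replicate 1 it was 1, with no block. With the glutamatergic-like nuclei of both brain regions left out 123 passed.

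Under the block, the Plcxd3 intron region shown above (chr15:4439182-4439984) stood at 7.17 and 13.7 CPM in LGE, 0.371 and 0.748 CPM in CGE and 2.74 and 6.44 CPM in MGE (log2 fold 4.22, edgeR adjusted p = 0.0217 with the block). A region in an intron of Gfra1, a GDNF co-receptor (chr19:58259116-58260045), stood at 7.05 and 13.4 CPM in LGE and 0.928 and 0.476 CPM in CGE (3.83). Lower in LGE was a region in an intron of Sorcs1 (chr19:50214105-50215450), at 4.24 and 4.92 CPM against 18.5 and 27.1 CPM (-2.29), and one 121 kb from Unc5b, a netrin receptor gene (chr10:60952119-60953346), at 2.20 and 1.94 CPM against 9.71 and 13.3 CPM (-2.44). Within 100 kb of the 9 listed genes 1 region passed under the block, lower in LGE near Nr2f1.

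The deposited counts per motif showed no call. Of 579 motifs none passed against the MGE (0%) or the CGE (0%) in edgeR, with 26 and 49 at an unadjusted p under 0.05, and DESeq2 called 4 and 14. The motif of PKNOX1, a TALE factor of the Meis and Pbx class, stood at 92.5 and 90.4 CPM in LGE and 54.0 and 45.8 CPM in MGE (log2 fold 0.87 ± 0.23, edgeR adjusted p = 0.680), and that of MEIS1 at 23851 and 19831 CPM against 18718 and 17844 CPM (0.26 ± 0.09, edgeR adjusted p = 0.680). Against the CGE the motif of Rarb stood at 174 and 158 CPM in LGE and 114 and 123 CPM in CGE (0.48 ± 0.12, edgeR adjusted p = 0.426), and Hoxa11 had the smallest p (1.33 ± 0.19). The motif of MEIS2 stood at 0.10 ± 0.07 against the MGE, and those of RARA::RXRG and RXRG at -0.46 ± 0.29 and -0.12 ± 0.11 against the CGE. Against the MGE, EOMES had the smallest p among motifs higher in LGE (0.57 ± 0.14) and NFIC::TLX1 among those lower (-0.39 ± 0.08). None of these motifs passed.

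Finally, the change from the highest 25% by score to the selected 25% was compared between brain regions, each sample serving as its own block. Both comparisons use the same LGE samples. Against the MGE this change differed in 486 of 17085 genes (edgeR, adjusted p of 0.05 or less), 2.84% of those tested, with 282 more positive in LGE and 204 less. Among them were 2 genes of the score, Gad1 and Slc32a1, which are not read further, and 24 genes of the other lists. Without LGE replicate 1, LGE replicate 2 or MGE replicate 2 the count was 76, 194 and 191, and without CGE replicate 1 or 2 it was 761 and 821. With the score taken on thinned counts it was 265.

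Of the striatal genes 4 of 19 passed, against 2.84% of all tested genes, all with a change more positive in LGE than in MGE. Their list had a median difference of 0.25 against 0.02 over all genes. Zfp503 changed by 0.90 and 0.91 in LGE, by -0.45 and -0.44 in MGE and by 0.01 and 0.31 in CGE on the log2 scale, and the LGE and MGE changes differed by 1.36 ± 0.12 (edgeR adjusted p = 0.000226). Ebf1 changed by 0.38 and 0.36 in LGE and by -0.19 and -0.43 in MGE (difference 0.68), and Foxp2 by 0.32 and 0.30 against -0.47 and -0.39 (0.74). Meis2 changed by -0.13 and -0.12 in LGE and by -0.75 and -1.07 in MGE (0.78). In CGE the changes of Zfp503 lay between those of LGE and MGE, and those of the other genes lay nearer LGE. These were 0.21 and 0.36 for Ebf1, 0.29 and 0.10 for Foxp2, and -0.21 and -0.24 for Meis2. The sign of change was opposite between LGE and MGE for the first 3 genes and the same for Meis2.

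MGE genes moved in both directions: 3 of 18 were less positive in LGE and 1 more. Lhx6 changed by 0.31 and 0.07 in LGE and by 2.02 and 1.45 in MGE (difference -1.54 ± 0.17, edgeR adjusted p = 0.000965), Lhx8 by -0.39 and -0.23 against 0.92 and 0.80 (-1.18), and the homeobox gene Gbx1 by -0.31 and 0.17 against 0.92 and 1.03 (-1.07). Nkx2-1 changed by 0.31 and -0.01 in LGE and by -0.42 and -0.75 in MGE (0.75). Slit2, a repulsive axon guidance ligand, changed by -0.01 and 0.003 in LGE and by -0.93 and -0.99 in MGE (0.96), while Plxna4, a semaphorin co-receptor, changed by 0.54 and 0.70 against 1.22 and 1.03 (-0.51), and Epha5, an ephrin receptor, by 0.29 and 0.17 against 0.75 and 0.76 (-0.53). Of the axon guidance genes 1 of 20 was more positive in LGE and 2 were less, against 2.84% of all tested genes passing in either direction.

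In the other lists, 2 of 9 dorsal LGE genes (Tshz1 and Tshz2), 2 of 15 retinoic acid pathway genes (Rara and Stra6), 2 of 10 cycling and intermediate progenitor genes (Btg2 and Dll3), and 1 each of the outside-score GABAergic (Sp9), CGE (Adarb2), pan-neuronal (Gap43), outside-score progenitor (Notch2) and endothelial lists (Tek) were more positive in LGE. Among glutamatergic genes 1 of 9 passed, Emx1, which was less positive in LGE. Microglial, mural, erythroid and oligodendrocyte precursor genes gave no call. These counts stand beside the 2.84% of all tested genes that passed in either direction. A single call in so short a list is not read as a result about the list. Tek was at 8.72 and 5.12 CPM in the selected LGE nuclei.

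By size, the genes most in favour of LGE were Otc, Spef2, Sycp2l, Ofcc1, Ppp1r3a, Mdfic, Zfp957 and Brinp1, with differences from 2.44 down to 1.78, and Ppp1r3a and Mdfic lie on either side of Foxp2 on chromosome 6. Brinp1, a neuronal cell cycle inhibitor, changed by 0.96 and 1.32 in LGE and by -0.57 and -0.73 in MGE. Least in favour were Cmah, Iqub, Mettl11b, Atp10b, Cntnap3, Iqcm, Cdh17 and Lypd6b, with differences from -2.32 to -1.72. Lypd6b, a modulator of nicotinic receptors, changed by -0.37 and -0.11 in LGE and by 1.48 and 1.45 in MGE.

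Against the CGE the change differed in no gene (edgeR, 0% of 17085), with 1254 at an unadjusted p under 0.05, and DESeq2 called 25. Zfp503 had a difference of 0.75 ± 0.12 (edgeR adjusted p = 0.102), and Ebf1 of 0.08 ± 0.12 (edgeR adjusted p = 0.961). Nr2f1 changed by -0.45 and -0.59 in LGE and by -0.31 and -0.84 in CGE, with the samples of both regions interleaved.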

How the data were processed

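The authors deposited raw counts per peak and barcode, with peaks called per sample, and counts per motif and barcode. Per the labels' processing notes these came from Cell Ranger ATAC 1.2.0 on GRCm38 (mm10). Counts were summed over GENCODE M21 protein-coding gene bodies with 2 kb upstream and over merged peaks present in all 6 samples. Sums over selected nuclei were tested in edgeR 4.0.16 (R 4.3.3; TMM, filterByExpr, glmQLFit and glmQLFTest, 3 groups of 2) with Benjamini-Hochberg adjustment, and DESeq2 1.42.0 was an alternative. CPM are scaled to the counts in the features tested. Sub-groups came from latent semantic indexing on 29 components and Leiden clustering (leidenalg 0.10.2, resolution 0.5). No doublet caller was run, and leaving out the deepest 5% of nuclei was an alternative. The scripts were tested on simulated data. The nuclei, lists and rules were chosen with earlier results of these data known. Named genes were list genes and, per comparison and direction, the 8 largest folds among called genes with non-overlapping samples, a mean of 10 CPM and 500 bp of peak in every sample. Named regions were the 4 largest folds per direction called also with the covered-length offset, and the largest within 100 kb of 9 listed genes, and those under the block were taken after no region had passed without it. Named motifs were the 4 of smallest p per direction and listed factors. Tied scores at the cut were taken in file order. Deviations of same-numbered samples correlated by 0.123, 0.288 and 0.121 in regions for the 3 pairs of brain regions. The values were 0.426, 0.293 and 0.433 in motifs and 0.128, 0.343 and 0.003 in genes. Whether replicate numbers pair the samples was not tested. Some results are not reported here. Precision is limited by 2 samples per region.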

Additional observations from a re-analysis of the deposited data

Results flagged for a closer look

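The change from the highest to the selected 25% by score differed between LGE and MGE in 486 genes by the test of that difference (edgeR, adjusted p of 0.05 or less). Of the list genes, the change was more positive in LGE for Zfp503 (1.36), Tek (1.26), Slit2 (0.96), Meis2 (0.78), Nkx2-1 (0.75), Foxp2 (0.74), Dll3 (0.70), Ebf1 (0.68), Stra6 (0.65), Btg2 (0.65), Gap43 (0.58), Sp9 (0.58), Notch2 (0.57), Tshz2 (0.55), Tshz1 (0.54), Rara (0.51) and Adarb2 (0.50), all on the log2 scale. It was less positive for Lhx6 (-1.54), Lhx8 (-1.18), Gbx1 (-1.07), Emx1 (-0.58), Epha5 (-0.53) and Plxna4 (-0.51).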

How the results depend on the processing

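Counts of calls are limited by 2 samples per region and by peaks called per sample. DESeq2 gave 457 genes and 4 motifs against the MGE, and 65 genes (18 higher), 964 regions, 14 motifs and 25 differences in change against the CGE. The lowest 10% of the score gave 108 genes against the MGE, and 29 regions and 9 differences in change against the CGE. The covered-length offset gave 1 gene against each region, and 446 regions (439 higher, with the median of all regions moved to 0.27) against the CGE. Peaks within 1 kb of a start site gave 27 and 6 genes. The score on thinned counts gave 265 differences in change against the MGE. Against the CGE, total counts as library size gave 16, leaving out the deepest 5% of nuclei 23, and all other nuclei as comparison 9. The replicate block gave 26 genes against the MGE and 324 regions against the CGE, and moved no other count by over 1.5 times. It gave 2 genes against the CGE, 8814 regions against the MGE and 0 motifs against either.

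Leaving out each sample in turn gave 22 to 248 genes, 2369 to 6250 regions, 0 to 0 motifs and 76 to 821 differences in change against the MGE, and 2 to 12 genes, 0 to 260 regions, 0 to 0 motifs and 0 to 9 differences in change against the CGE, where a lone sample is assumed to vary like the other groups. The 9 came without CGE replicate 1. Settings added after seeing the data were leaving out the glutamatergic-like nuclei (93 genes against the MGE, 123 regions and 2 differences in change against the CGE) and keeping nuclei with B above A (13 regions and 1 difference in change against the CGE). Over the alternatives, Morn5 turned to 0.55 with the offset (edgeR adjusted p = 0.775) and 1700019N19Rik to -2.57 in peaks near start sites (edgeR adjusted p = 0.866), and the cause was not tested. Of 301 values for 18 genes named against the MGE, 235 kept direction and call and 64 lost the call, as did 4 of 239 for 15 regions and 99 of 600 for 40 genes whose change differed.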
